A study of Mus musculus with 9 samples.

Results

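The disease-associated microglia genes studied here were Trem2, Tyrobp, Apoe, Cst7, Axl, Clec7a, Spp1, Itgax, Lgals3 and Cd9. They were taken from the expression table by gene symbol, and all 10 members were found among its 27339 genes. RNA sequencing had been done on 9 libraries from mouse substantia nigra pars compacta, the midbrain nucleus that holds the dopamine neurons of the pathway to the striatum. A group labelled MPTP + MCT-KD (3 libraries, called the diet group) received the toxin MPTP together with a ketogenic diet based on medium-chain triglycerides. A group labelled MPTP (3 libraries) received the toxin alone, and a group labelled Ctrl (3 libraries) served as controls. Astrocytes oxidise MPTP to a toxic ion that dopamine neurons take up and that blocks complex I of the respiratory chain. A ketogenic diet replaces carbohydrate with fat, so that ketone bodies become a main fuel. The diet was thus measured only in mice that had also received MPTP. The labels used here give no strain, sex, age, dose or time after MPTP, and they do not tie libraries to separate animals. The p-values therefore measure the spread between these libraries, which may be partly technical.

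Microglia are the resident macrophages of the brain. In mouse models of amyloid disease and in ageing and demyelination they can enter a disease-associated state, in which genes of lipid handling, lysosomes and phagocytosis rise and genes of the resting state fall. The receptor TREM2, with its adaptor TYROBP, senses lipids and apolipoproteins and is needed for the full state in mice. Tyrobp and Apoe are usually placed in an early step that does not need TREM2, and Axl, Cst7, Clec7a, Spp1, Itgax, Lgals3 and Cd9 in the later, TREM2-dependent step or among genes seen with it. Several of these genes are not private to microglia. Astrocytes are the main source of Apoe in healthy brain, and Cd9 is also made by oligodendrocytes, Axl by astrocytes and vessels, and Spp1 by some neurons and by cells of the meninges and vessels.

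Total counts per library lay between 33.2 and 40.0 M (M for the prefix mega). The libraries held microglial RNA: all 20 microglia marker genes passed the filter on low values, with summed levels of 525 to 543 CPM in the diet group, 503 to 534 CPM in MPTP and 460 to 509 CPM in Ctrl. A CPM is a count per M counts of a library, scaled by TMM. None of the defining markers Cx3cr1, P2ry12, Tmem119, Csf1r and Aif1 was at 0 in any library, and Aif1 was the lowest, with 64 to 140 raw counts. Th, the rate-limiting enzyme of dopamine synthesis and a check on the toxin, was at 61.9 ± 15.2 CPM in the diet group, 62.4 ± 6.49 CPM in MPTP and 87.0 ± 19.9 CPM in Ctrl (SD, n = 3). It did not pass in MPTP or in the diet group against Ctrl (adjusted p = 0.913 and 0.753, edgeR). All 10 dopamine neuron markers were below Ctrl in both comparisons, and none passed by edgeR, DESeq2 or limma. By edgeR, DESeq2 and limma 4, 6 and 5 of the 10 had an unadjusted p under 0.05 for MPTP against Ctrl. The shares of all genes tested at that level were 5.36%, 5.75% and 5.73%. For the diet group against Ctrl the counts were 3, 6 and 7 of 10, beside 6.73%, 6.95% and 6.66% of all genes. Some libraries stood apart in tissue around the nigra. The 8 choroid plexus markers summed to 1250 CPM in Ctrl 3, and no other library exceeded 104 CPM. The mean log2 level of 10 meningeal fibroblast markers, set to 0 in Ctrl, was -1.09 in diet library 1, -1.33 in MPTP 1 and -1.12 in MPTP 2, and lay between -0.46 and 0.61 in the other libraries. In bulk tissue, fewer cells of a type and less RNA per cell cannot be told apart.

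The 10 genes spanned a very wide range of levels per transcript length. On the FPKM scale (fragments per kilobase of transcript per M fragments), the order of mean levels over the 9 libraries was Apoe, Spp1, Cd9, Axl, Tyrobp, Trem2, Lgals3, Clec7a, Cst7 and Itgax. Apoe averaged 958 ± 42.9 FPKM (SD over 9 libraries), a level above that of 99.9% of the genes tested. Spp1 averaged 30.6 ± 16.0 FPKM and Cd9 28.7 ± 1.79 FPKM, and their levels could not be ordered, since Spp1 exceeded Cd9 in 4 of 9 libraries. Axl followed at 13.1 ± 0.813 FPKM, Tyrobp at 8.99 ± 1.07 FPKM and Trem2 at 5.46 ± 0.736 FPKM, and each of these was above the next in all 9 libraries. Lgals3 averaged 0.756 ± 0.431 FPKM.

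The last 3 genes of this order were too low to judge. Clec7a averaged 0.169 FPKM, Cst7 0.0882 FPKM and Itgax 0.0364 FPKM, all under the minimum mean of 0.5 FPKM set for a test. They carried 5 to 30, 0 to 10 and 0 to 10 raw reads a library, in that order. Their levels overlapped between neighbours in the order. Clec7a exceeded Cst7 in 7 of 9 libraries and Cst7 exceeded Itgax in 6 of 9. The remaining 7 members could be tested, and Lgals3 was the weakest of them with 16 to 67 raw reads a library.

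**Figure D1:**
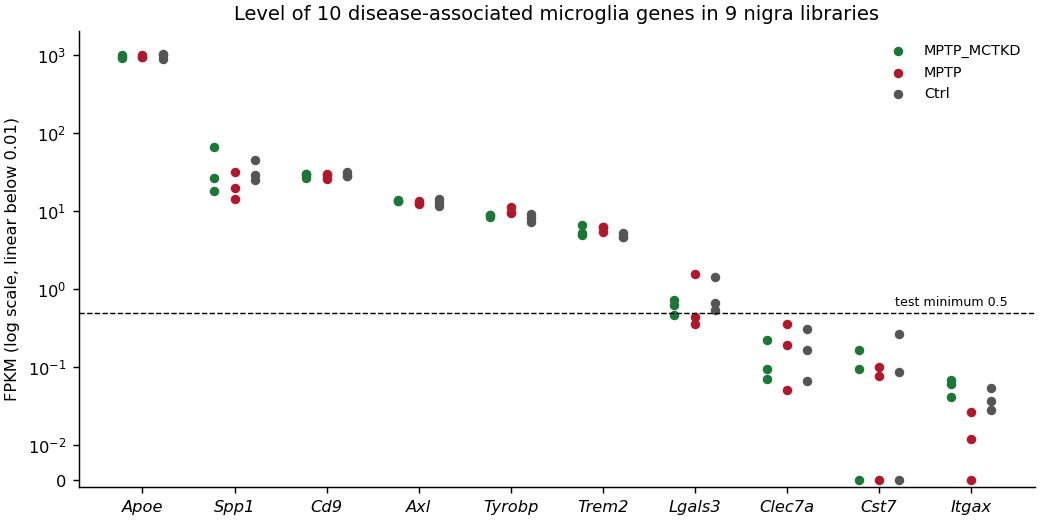
FPKM of the 10 genes in the 9 libraries, on a log axis that is linear below 0.01 FPKM; each point is a library of the diet group, MPTP or Ctrl, and the dashed line is the minimum mean of 0.5 FPKM for a test. Apoe lies near 958 FPKM in every library, and Clec7a, Cst7 and Itgax lie below the line throughout.

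No testable member passed in any comparison. Of 7 members tested, 0 were called at an adjusted p of 0.05 by edgeR's quasi-likelihood test for MPTP against Ctrl, where 0.0134% of all 14949 genes tested were called. In the diet group the count was also 0 of 7 against MPTP and against Ctrl, with 0% of all genes called in each comparison. At an unadjusted p under 0.05 edgeR and DESeq2 had 0 of 7 members in each comparison. The shares of all genes at that level were 5.36% for MPTP against Ctrl, 7.78% for the diet group against MPTP and 6.73% for the diet group against Ctrl by edgeR, and 5.75%, 8% and 6.95% by DESeq2. By limma on log2 FPKM 0 of 7 passed after adjustment, and those under an unadjusted p of 0.05 were 2 for MPTP against Ctrl (Trem2 and Tyrobp), 1 for the diet group against MPTP (Tyrobp) and 0 for the diet group against Ctrl, beside 5.73%, 7.79% and 6.66% of all genes. For MPTP against Ctrl, 2 members were above Ctrl and 5 below, with a median log2 fold change of -0.022, where the median of all genes tested was -0.00092. In the diet group, 4 were above MPTP and 3 below (median 0.011, all genes 0.00056). Against Ctrl, the diet group had 4 above and 3 below (median 0.079, all genes -0.0015). The comparisons share groups of libraries and are not independent of each other.

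The precision differed greatly between members. For MPTP against Ctrl the 95% interval of the fold change ran from 0.911 to 1.06 for Apoe, 0.890 to 1.09 for Axl and 0.860 to 1.08 for Cd9, so these levels were known to within a narrow band. It ran from 0.955 to 1.58 for Trem2 and from 0.956 to 1.57 for Tyrobp. For Lgals3 it ran from 0.401 to 1.65 and for Spp1 from 0.253 to 1.73, so these levels were known only to within a wide band. Large falls of either gene lay within these intervals. The size of change that would have been detectable was not computed.

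**Figure D2:**
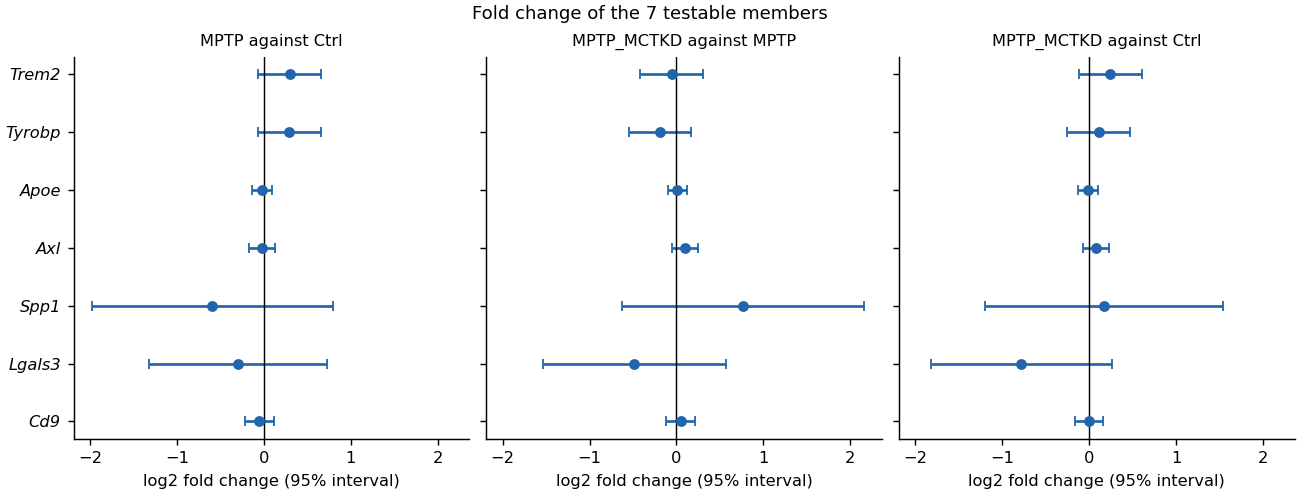
Log2 fold change of the 7 testable members in 3 comparisons; points are edgeR estimates from 3 libraries a group and bars their 95% intervals. All 21 intervals include 0, and those of Spp1 and Lgals3 are much wider than those of Apoe, Axl and Cd9.

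Trem2 encodes the lipid-sensing receptor (ENSMUSG00000023992, chromosome 17, 48346401 to 48354147, plus strand, GRCm38). It was at 6.08, 5.71 and 7.69 CPM in the 3 diet libraries, 7.22, 7.01 and 6.04 CPM in those of MPTP and 6.02, 5.28 and 5.19 CPM in those of Ctrl. All 3 MPTP libraries lay above all 3 Ctrl libraries, but MPTP 3 and Ctrl 1 nearly touched, and the diet group overlapped with both. MPTP against Ctrl gave 0.30 on the log2 fold scale (SE 0.169, adjusted p = 0.915, edgeR). The diet group gave -0.056 against MPTP (SE 0.168, adjusted p = 0.958) and 0.24 against Ctrl (SE 0.169, adjusted p = 0.837).

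Tyrobp, the adaptor that carries the signal of TREM2 into the cell (ENSMUSG00000030579, chromosome 7, 30413760 to 30417585, plus strand), showed nearly the same difference. It was at 5.36, 5.11 and 5.38 CPM in the 3 diet libraries, 6.71, 5.62 and 5.74 CPM in those of MPTP and 4.42, 5.48 and 4.82 CPM in those of Ctrl. The MPTP libraries lay above both other groups without overlap, while the diet group overlapped with Ctrl. MPTP against Ctrl gave 0.29 on the log2 fold scale (SE 0.167, adjusted p = 0.915, edgeR). The diet group gave -0.19 against MPTP (SE 0.167, adjusted p = 0.806) and 0.11 against Ctrl (SE 0.167, adjusted p = 0.937).

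Of the 7 testable members, 2 (Trem2 and Tyrobp) lay higher in MPTP than in Ctrl without overlap and 0 lower, beside 5.14% and 5.41% of all genes tested. Between the diet group and MPTP, 0 lay higher and 1 (Tyrobp) lower, beside 6.64% and 7.1% of all genes. Between the diet group and Ctrl, 0 lay higher and 0 lower, beside 6.28% and 6.4% of all genes. Of the 20 microglia markers 15 were above Ctrl in MPTP (median log2 fold change 0.10), and 17 were above Ctrl in the diet group (median 0.16). Against MPTP, 13 were above in the diet group (median 0.058), the opposite sign to Trem2 and Tyrobp. None of the 20 passed by edgeR, DESeq2 or limma in any comparison. An unadjusted edgeR p under 0.05 was found for 3 (Laptm5, P2ry12 and P2ry13) in MPTP against Ctrl, 0 in the diet group against MPTP and 6 in the diet group against Ctrl, beside 5.36%, 7.78% and 6.73% of all genes. With the mean level of these markers as a covariate, the log2 fold change of MPTP against Ctrl was 0.26 for Trem2 and 0.14 for Tyrobp, and that of the diet group against Ctrl was 0.19 for Trem2 and -0.099 for Tyrobp.

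**Figure D3:**
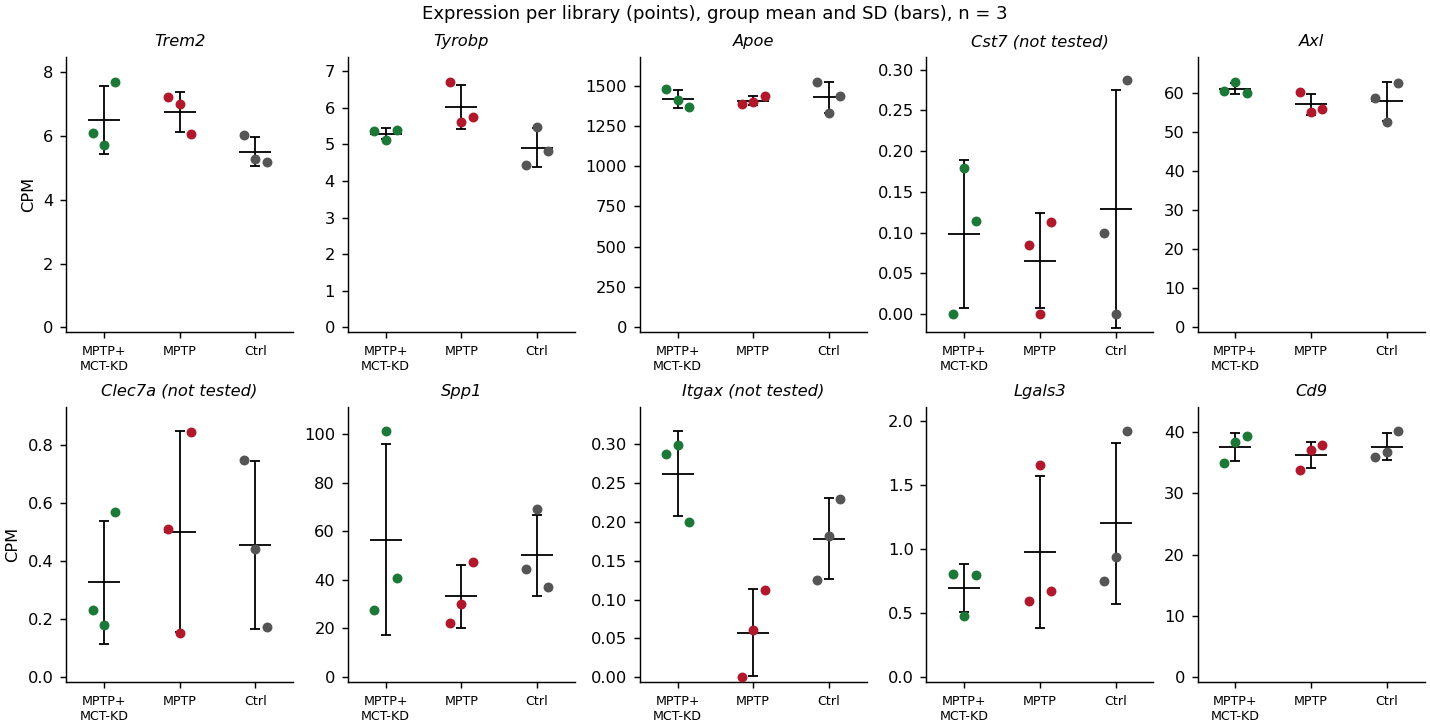
CPM of each of the 10 genes in every library of the diet group (MPTP + MCT-KD), MPTP and Ctrl, with the group mean and SD as bars (n = 3); each panel has its own axis. The 3 MPTP points lie above the 3 Ctrl points for Trem2 and Tyrobp, and Spp1 spreads from 27.8 to 101 CPM within the diet group.

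The other genes of TREM2 signalling did not pass either. Of 15 genes on that list 14 were tested and none was called in any comparison by edgeR, DESeq2 or limma. At an unadjusted edgeR p under 0.05 there was 1 for MPTP against Ctrl (the inhibitory receptor gene Cd33), 1 for the diet group against MPTP (Clu) and 0 for the diet group against Ctrl. The shares of all genes at that level were 5.36%, 7.78% and 6.73% in that order. The list holds Dap, a death-associated protein gene that is not part of the receptor complex. The median log2 fold change was 0.029 for MPTP against Ctrl (8 above, 6 below), -0.070 for the diet group against MPTP and -0.056 for the diet group against Ctrl. Syk, the kinase recruited by TYROBP, was at 3.27 ± 1.12 CPM in the diet group, 4.15 ± 0.444 CPM in MPTP and 3.92 ± 0.472 CPM in Ctrl (SD, n = 3). Plcg2, the phospholipase downstream of it, was at 5.28 ± 0.656, 5.24 ± 0.722 and 5.94 ± 0.704 CPM in the same order of groups. The lipid phosphatase Inpp5d, an inhibitor of the pathway, was at 9.67 ± 0.857 CPM in the diet group, 10.2 ± 1.31 CPM in MPTP and 9.45 ± 1.14 CPM in Ctrl. Hcst, which encodes the second adaptor of TREM2, was too low to test, with 0 to 12 raw reads a library. Adam10, a protease that sheds TREM2 from the surface, had the log2 fold changes 0.018, -0.058 and -0.041 for MPTP against Ctrl, the diet group against MPTP and the diet group against Ctrl.

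Apoe encodes the main lipid carrier of the brain and a ligand of TREM2 (ENSMUSG00000002985, chromosome 7, 19696109 to 19699188, minus strand). It was at 1476, 1409 and 1366 CPM in the 3 diet libraries, 1388, 1395 and 1436 CPM in those of MPTP and 1522, 1330 and 1432 CPM in those of Ctrl. The groups overlapped fully, and the Ctrl libraries alone spanned the range of all 9. The log2 fold change was -0.022 for MPTP against Ctrl (SE 0.0522, adjusted p = 0.981, edgeR). It was 0.011 for the diet group against MPTP (SE 0.0522, adjusted p = 0.975) and -0.011 for the diet group against Ctrl (SE 0.0522, adjusted p = 0.974). Over the 9 libraries its CPM varied by 4.07% (coefficient of variation), less than that of 13619 of the 14949 genes tested.

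Genes that load, sense or take up apolipoprotein E were tested beside it, 10 in all. None passed by edgeR or limma in any comparison, and by DESeq2 0, 0 and 1 of the 10 passed for MPTP against Ctrl, the diet group against MPTP and the diet group against Ctrl. The median log2 fold change was 0.070 for MPTP against Ctrl (6 above, 4 below), -0.049 for the diet group against MPTP (4 above, 6 below) and -0.018 for the diet group against Ctrl (4 above, 6 below). In the diet group against MPTP, 5 of the 10 had an unadjusted edgeR p under 0.05, among them Abca1, Clu, Lrp1 and Lrp8, beside 7.78% of all genes. The endocytic receptor Lrp1 was at 578 ± 23.1 CPM in the diet group, 648 ± 37.6 CPM in MPTP and 617 ± 33.2 CPM in Ctrl (SD, n = 3). Clu, another abundant apolipoprotein and TREM2 ligand, was at 652 ± 16.1, 700 ± 30.9 and 667 ± 8.42 CPM, and the liver X receptor gene Nr1h2 at 55.7 ± 3.52, 53.9 ± 1.14 and 57.3 ± 6.61 CPM, in the order diet group, MPTP and Ctrl.

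Axl encodes a receptor tyrosine kinase that binds apoptotic cells through the bridging ligand GAS6 (ENSMUSG00000002602, chromosome 7, 25757273 to 25788705, minus strand). It was at 60.4, 62.8 and 60.0 CPM in the 3 diet libraries, 60.2, 55.2 and 55.8 CPM in those of MPTP and 58.6, 52.5 and 62.4 CPM in those of Ctrl. The diet libraries were high and close together but overlapped with both other groups. The log2 fold change was -0.019 for MPTP against Ctrl (SE 0.0692, adjusted p = 0.987, edgeR). It was 0.099 for the diet group against MPTP (SE 0.0693, adjusted p = 0.754) and 0.079 for the diet group against Ctrl (SE 0.0692, adjusted p = 0.876).

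The ligands and the other receptors of the TAM family, 4 genes in all, showed no call either, and 0 of the 4 had an unadjusted p under 0.05 by edgeR, DESeq2 or limma. Gas6 was at 144 ± 6.61 CPM in the diet group, 140 ± 1.62 CPM in MPTP and 145 ± 7.69 CPM in Ctrl (SD, n = 3). Mertk, the TAM receptor of resting microglia, was at 31.9 ± 8.65 CPM in the diet group, 23.0 ± 3.87 CPM in MPTP and 24.7 ± 6.91 CPM in Ctrl. Its log2 fold change of 0.47 for the diet group against MPTP was within the spread of its libraries (adjusted p = 0.717, edgeR). The ligand gene Pros1 was at 18.6 ± 1.99, 16.9 ± 2.08 and 15.7 ± 0.953 CPM and the neuronal receptor gene Tyro3 at 75.5 ± 4.197, 80.3 ± 2.41 and 76.6 ± 8.18 CPM, in the order diet group, MPTP and Ctrl. The median log2 fold change of these 4 genes was 0.0075 for MPTP against Ctrl, 0.089 for the diet group against MPTP and 0.12 for the diet group against Ctrl.

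Cd9 encodes a membrane-organising tetraspanin (ENSMUSG00000030342, chromosome 6, 125460266 to 125494791, minus strand). It was at 34.9, 38.3 and 39.3 CPM in the 3 diet libraries, 33.9, 37.1 and 37.9 CPM in those of MPTP and 36.0, 36.7 and 40.1 CPM in those of Ctrl. The groups overlapped, with Ctrl 3 highest. The log2 fold change was -0.052 for MPTP against Ctrl (SE 0.0766, adjusted p = 0.971, edgeR). It was 0.048 for the diet group against MPTP (SE 0.0767, adjusted p = 0.911) and -0.0039 for the diet group against Ctrl (SE 0.0765, adjusted p = 0.996). The annotated genes Gm26728 and Gm28809 overlap Cd9 on the opposite strand, and no strand setting was stated. They were not among the measured genes by those names, and whether their reads were counted in Cd9 was not tested. Markers of oligodendrocytes, which also make Cd9, had a median log2 fold change of 0.18 for MPTP against Ctrl and 0.25 for the diet group against Ctrl. In these comparisons 9 and 10 of the 10 markers were above Ctrl, and none passed by edgeR, DESeq2 or limma. By edgeR 3 and 7 had an unadjusted p under 0.05, beside 5.36% and 6.73% of all genes. Over the 9 libraries Cd9 and the oligodendrocyte level had r = -0.19 and rho = -0.050 (exact permutation p = 0.618 and 0.912), and r was -0.063 without Ctrl 1 and Ctrl 3 and -0.20 within groups.

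Spp1 encodes osteopontin, a secreted ligand of integrins and CD44 (ENSMUSG00000029304, chromosome 5, 104435118 to 104441050, plus strand). It was at 27.8, 101 and 40.7 CPM in the 3 diet libraries, 22.1, 30.1 and 47.5 CPM in those of MPTP and 44.3, 69.1 and 37.1 CPM in those of Ctrl. Diet library 2 was far above the rest, and every group overlapped with the others. The annotated gene Gm42793 overlaps Spp1 on the same strand. It was not among the measured genes by that name, and whether its reads were counted in Spp1 was not tested. The highest library exceeded the lowest by 4.59-fold. Its coefficient of variation of 52.8% was exceeded by 277 of the 14949 genes tested. The log2 fold change was -0.59 for MPTP against Ctrl (SE 0.571, adjusted p = 0.954, edgeR), and it was -0.29 without Ctrl 2 and -0.94 without MPTP 3. It was 0.77 for the diet group against MPTP (SE 0.572, adjusted p = 0.776) and 0.17 for the diet group against Ctrl (SE 0.563, adjusted p = 0.965). Without diet library 2 the diet group gave -0.55 against Ctrl and 0.045 against MPTP, and without Ctrl 3 it gave -0.0042 against Ctrl.

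The level of Spp1 was low where meningeal fibroblast markers were low. The 3 libraries with the lowest meningeal level, MPTP 1, MPTP 2 and diet library 1, were also the 3 with the lowest Spp1. The 10 meningeal markers had a median log2 fold change of -0.82 for MPTP against Ctrl, with 10 of 10 below Ctrl, and of 0.82 for the diet group against MPTP, with 10 of 10 above MPTP. None of the 10 passed by edgeR, DESeq2 or limma. Those with an unadjusted p under 0.05 in these comparisons were 0 and 1 by edgeR, 3 and 2 by DESeq2, and 1 and 1 by limma. The shares of all genes were 5.36% and 7.78% by edgeR, 5.75% and 8% by DESeq2, and 5.73% and 7.79% by limma. The summed level of the 10 markers was 110 to 304 CPM in the diet group, 88.6 to 186 CPM in MPTP and 183 to 266 CPM in Ctrl. Across the 9 libraries Spp1 and the mean log2 level of these markers had a Pearson r of 0.74 (exact permutation p = 0.0201, adjusted p = 0.415 over 35 relations). Spearman's rho was 0.72 (exact permutation p = 0.0369, adjusted p = 0.726). Without MPTP 1 and MPTP 2, the libraries farthest from the median marker level, r was 0.56, and within groups it was 0.66. The 6 mural cell markers, of vessel walls, were lowest in the same 3 libraries, with a mean log2 level (Ctrl at 0) of -0.41 for diet library 1, -0.53 for MPTP 1 and -0.46 for MPTP 2. Their median log2 fold change was -0.34 for MPTP against Ctrl (1 above, 5 below) and 0.40 for the diet group against MPTP (4 above, 2 below). None of the 6 passed by edgeR or limma, and DESeq2 called Myh11, a smooth muscle myosin gene, for the diet group against MPTP (log2 fold change 0.68, adjusted p = 0.0494). The part of meningeal and vessel tissue in the Spp1 values was not tested.

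**Figure D4:**
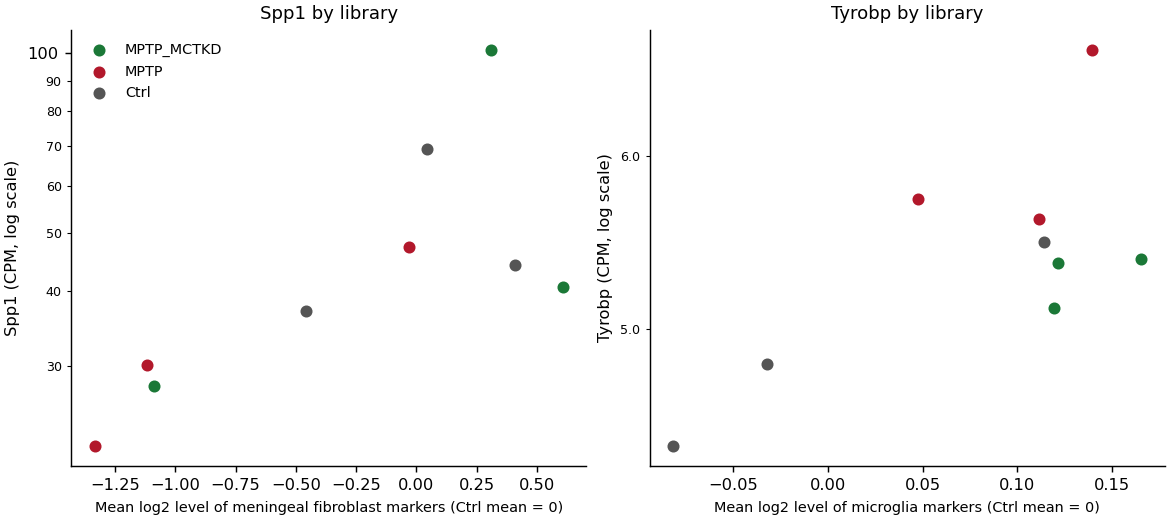
Left, CPM of Spp1 (log axis) against the mean log2 level of 10 meningeal fibroblast markers in each library, with r = 0.74 over 9 libraries; right, CPM of Tyrobp against the mean log2 level of 20 microglia markers, with r = 0.71. Both marker levels are set to 0 at the Ctrl mean, and neither relation passed after adjustment over 35 relations.

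Lgals3 encodes galectin 3, a secreted lectin of activated macrophages and microglia (ENSMUSG00000050335, chromosome 14, 47367751 to 47386160, plus strand). It had 28, 16 and 28 raw reads in the diet libraries, 21, 55 and 24 in those of MPTP and 30, 36 and 67 in those of Ctrl. MPTP 2 and Ctrl 3 stood above the other 7 libraries, and the groups overlapped. The log2 fold change was -0.30 for MPTP against Ctrl (SE 0.474, adjusted p = 0.973, edgeR), and without Ctrl 3 it was 0.21. It was -0.48 for the diet group against MPTP (SE 0.491, adjusted p = 0.841), and without MPTP 2 it was 0.13. For the diet group against Ctrl it was -0.78 (SE 0.485, adjusted p = 0.810), and without Ctrl 3 it was -0.27. The transcript length implied by count and FPKM varied from 1010 to 1611 bases between libraries, a ratio of 1.60 against at most 1.03 for the other 6 testable members. FPKM and count therefore ranked the libraries of Lgals3 differently, and on log2 FPKM the diet group against Ctrl gave -0.38.

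The members too low to judge are given as raw reads, with sums per group and 95% exact Poisson intervals, which cover counting error only. Itgax, the integrin subunit CD11c (ENSMUSG00000030789, chromosome 7, 128129547 to 128150657, plus strand), had 10, 10 and 7 reads in the diet libraries, 0, 2 and 4 in those of MPTP and 5, 7 and 8 in those of Ctrl. The sums of 27, 6 and 20 reads correspond to 0.260 (0.171 to 0.378), 0.0575 (0.0211 to 0.125) and 0.177 (0.108 to 0.273) reads per M. The MPTP libraries lay below those of both other groups. Of the 3 low members, Itgax alone separated any groups. In MPTP against Ctrl 0 lay higher and 1 lower without overlap, beside 3.1% and 3.08% of the 8268 genes that had a read but missed the minimum. In the diet group against MPTP 1 lay higher and 0 lower, beside 2.73% and 3.21%, and in the diet group against Ctrl 0 higher and 0 lower, beside 2.76% and 2.99% (5.75% in all). In the edgeR fit with no filter the adjusted p of Itgax was 0.840 for the diet group against MPTP and 0.921 for MPTP against Ctrl. The 0 of MPTP 1 allows up to 0.0833 CPM (3 counts).

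Clec7a, the beta-glucan receptor dectin 1 (ENSMUSG00000079293, chromosome 6, 129461591 to 129472779, minus strand), had 8, 6 and 20 reads in the diet libraries, 18, 5 and 30 in those of MPTP and 30, 17 and 6 in those of Ctrl. The groups overlapped completely, with sums of 34, 53 and 53 reads in the diet group, MPTP and Ctrl. Those sums correspond to 0.327 (0.226 to 0.457), 0.508 (0.381 to 0.665) and 0.469 (0.351 to 0.613) reads per M. Cst7, the cysteine protease inhibitor cystatin F (ENSMUSG00000068129, chromosome 2, 150570415 to 150578944, plus strand), had 0, 6 and 4 reads in the diet libraries, 3, 0 and 4 in those of MPTP and 4, 0 and 10 in those of Ctrl. Each group had a library at 0, and the sums were 10, 7 and 14 reads. A library at 0 allows up to 0.0855 CPM in diet library 1, 0.0904 CPM in MPTP 2 and 0.0778 CPM in Ctrl 2 (3 counts). In the fit with no filter the adjusted p of Cst7 and Clec7a was at least 0.909 in all 3 comparisons (edgeR).

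The partners of the integrin and osteopontin members were expressed. Itgb2, the beta subunit that pairs with Itgax, was at 4.44 ± 0.352 CPM in the diet group, 5.17 ± 0.142 CPM in MPTP and 4.72 ± 0.659 CPM in Ctrl (SD, n = 3). Itgam, the alpha subunit of microglia, was at 15.6 ± 2.40, 16.2 ± 2.60 and 14.0 ± 0.898 CPM in the same order of groups. Cd44, an osteopontin receptor, was at 5.73 ± 1.21 CPM in the diet group, 6.33 ± 2.25 CPM in MPTP and 6.06 ± 1.59 CPM in Ctrl. Among osteopontin-binding integrin subunits, Itgav, Itgb1 and Itgb3 had the log2 fold changes 0.089, -0.16 and 0.14 for MPTP against Ctrl. In the diet group they had 0.042, 0.093 and -0.37 against MPTP, and 0.13, -0.072 and -0.23 against Ctrl. None of the 6 genes on this list passed by edgeR, DESeq2 or limma. By edgeR 1 (Itgb1), 0 and 0 had an unadjusted p under 0.05 in these comparisons, beside 5.36%, 7.78% and 6.73% of all genes. The median log2 fold changes of the list were 0.11, -0.10 and -0.076.

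Further genes of the disease-associated state made a list of 30, many of which other brain cells also express. Of these 26 were tested, and none passed in any comparison by edgeR, DESeq2 or limma. At an unadjusted edgeR p under 0.05 there were 2 for MPTP against Ctrl (Cd63 and Igf1), 2 for the diet group against MPTP (Igf1 and Lpl) and 4 for the diet group against Ctrl (Capg, Cd63, Ctsz and Timp2), beside 5.36%, 7.78% and 6.73% of all genes. The chemokine genes Ccl3 and Ccl4, the sterol hydroxylase gene Ch25h and the glycoprotein gene Gpnmb were too low to test. For MPTP against Ctrl 11 were above and 15 below, with a median log2 fold change of -0.0064. In the diet group 13 were above and 13 below MPTP (median 0.0052), and 16 were above and 10 below Ctrl (median 0.013). The most abundant per length were the ferritin gene Fth1, the lysosomal protease gene Ctsd and the metalloprotease inhibitor gene Timp2, at means of 2602, 162 and 157 FPKM. Fth1 was at 2480 ± 186 CPM in the diet group, 2424 ± 238 CPM in MPTP and 2232 ± 151 CPM in Ctrl. Ctsd was at 353 ± 6.73, 372 ± 14.7 and 364 ± 4.19 CPM and Timp2 at 584 ± 29.4, 624 ± 22.5 and 635 ± 12.8 CPM in the same order of groups.

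**Figure D5:**
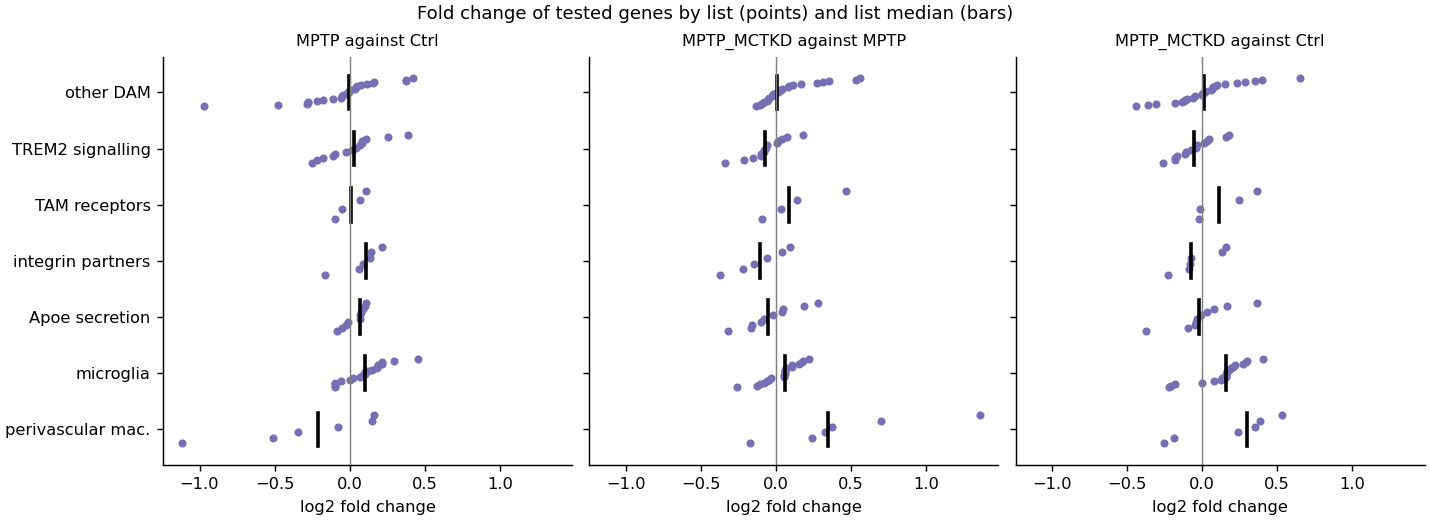
Log2 fold change of every tested gene (points) and median (black bar) on 7 gene lists in 3 comparisons, from the edgeR fit. The bar of the other disease-associated genes lies at -0.0064, 0.0052 and 0.013, and that of the microglia markers at 0.10, 0.058 and 0.16.

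Microglia markers and markers of other myeloid cells were read beside the members. P2ry12, the purinergic receptor of resting microglia, was at 21.1 ± 1.14 CPM in the diet group, 19.5 ± 2.06 CPM in MPTP and 15.9 ± 0.578 CPM in Ctrl (SD, n = 3). Its adjusted p was 0.740 for the diet group against Ctrl and 0.893 for MPTP against Ctrl (edgeR). Cx3cr1, the fractalkine receptor, was at 39.0 ± 2.04, 39.9 ± 0.173 and 34.98 ± 5.13 CPM and Tmem119 at 19.3 ± 1.92, 16.6 ± 1.67 and 16.6 ± 2.70 CPM, in the order diet group, MPTP and Ctrl. Csf1r was at 76.8 ± 4.40, 73.4 ± 0.988 and 68.5 ± 6.18 CPM and Aif1 at 2.23 ± 0.326, 2.40 ± 0.596 and 2.58 ± 0.927 CPM in that order.

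Markers of perivascular macrophages were low, with 6 of 9 tested and none called by edgeR, DESeq2 or limma. An unadjusted edgeR p under 0.05 was found for Mrc1 in MPTP against Ctrl, for F13a1 in the diet group against MPTP and for Stab1 in the diet group against Ctrl. The shares of all genes at that level were 5.36%, 7.78% and 6.73% in that order. The summed level of the perivascular macrophage markers was 26.0 to 42.2 CPM in the diet group, 24.5 to 26.1 CPM in MPTP and 22.7 to 29.4 CPM in Ctrl. Of 9 monocyte and neutrophil markers 1 passed the minimum, Ly6c2, which has a close copy in Ly6c1 of vessels. The 9 summed to 0.490 to 1.495 CPM in the diet group, 1.90 to 2.64 CPM in MPTP and 0.115 to 1.65 CPM in Ctrl, and Cd177 was at 0 in all 9 libraries. The sums of the MPTP libraries thus lay above those of both other groups without overlap. Of all single genes tested, 5.14% lay higher in MPTP than in Ctrl without overlap, and 7.1% lower in the diet group than in MPTP. Among the 8268 genes that had a read but missed the minimum, these shares were 3.1% and 3.21%. How often sums of other lists separate in this way was not counted. Ly6c2, with 0 to 41 raw reads a library, had a log2 fold change of 2.22 for MPTP against Ctrl (unadjusted p = 0.0360, adjusted p = 0.904, edgeR), and its unadjusted p was also under 0.05 by DESeq2 and limma. With its Ctrl mean at 0, Ly6c2 had log2 levels of 2.95, -0.098 and 2.84 in the 3 MPTP libraries. It was at 1.46, 0.028 and -1.48 in those of Ctrl, so these groups overlapped. Its adjusted edgeR p was 0.680 for the diet group against MPTP and 0.944 for the diet group against Ctrl. The part of such cells in the levels of Trem2 and Tyrobp was not tested.

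The 7 testable members were set against the mean log2 levels of microglia, astrocyte, oligodendrocyte, meningeal fibroblast and endothelial markers across the 9 libraries, 35 relations in all. None passed after adjustment (lowest adjusted exact permutation p = 0.415 for Pearson's r and 0.726 for Spearman's rho). Tyrobp and microglia markers had r = 0.71 (exact permutation p = 0.0330) and rho = 0.42 (p = 0.270). Without Ctrl 1 and Ctrl 3, the libraries lowest in microglia markers, r was 0.0083 over a narrower range of marker levels, so the relation over all libraries rested on those 2. Within groups, as deviations from group means over all 9 libraries, r was 0.84. That value includes Ctrl 1 and Ctrl 3 and was not computed without them. Trem2 and microglia markers had r = 0.51 (exact permutation p = 0.155) and rho = 0.65 (p = 0.0666), and r was again 0.51 without the same 2 libraries but 0.14 within groups. Apoe ran the other way, with r = -0.69 (exact permutation p = 0.0401) and rho = -0.57 (p = 0.121), and without those libraries r was -0.38, with -0.91 within groups. With astrocyte markers Apoe had r = -0.41 and rho = -0.37 (exact permutation p = 0.282 and 0.336), and r was -0.48 without Ctrl 3 and diet library 2 and -0.57 within groups. The relations of Trem2 and Tyrobp were not particular to microglia markers. With endothelial, oligodendrocyte, astrocyte and meningeal markers r was 0.54, 0.51, 0.36 and -0.19 for Trem2. For Tyrobp it was 0.63, 0.58, 0.16 and -0.57 in the same order.

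By likeness of pattern, measured as Pearson's r of log2 CPM over the 9 libraries among 12808 annotated genes with a mean of at least 1 FPKM, the genes nearest to Trem2 were Mettl23 (r = 0.95) and Vps36 (r = 0.93), and the nearest to Tyrobp were the oligodendrocyte gene Opalin (r = 0.97) and Aatk (r = 0.96). Apoe was nearest to Lrch2 (r = 0.97) and Tmem158 (r = 0.95), Axl to Gnb5 (r = 0.93) and Ddah2 (r = 0.91), and Cd9 to Gchfr (r = 0.95) and Frzb (r = 0.94). Spp1 was nearest to Anxa4 and Crtac1 (r = 0.94 for both), and Lgals3 to Kcnj14 (r = 0.97) and Kdm2a (r = 0.93). With 9 libraries and so many genes, values of this size describe these libraries only.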

How the data were processed

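Libraries were made from total RNA with the NEBNext Ultra RNA kit, per the labels' protocols. The deposited table gives for every gene a raw count and an FPKM in each library, per the file headers, on GRCm38 (mm10), per the submitters' processing notes. The sources used here name no aligner, counting tool, annotation or strand setting. Coordinates came from GENCODE M21 on GRCm38. Of 27349 lines 10 named no gene and were dropped.

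Counts were tested with edgeR 4.0.16 (TMM, robust quasi-likelihood, R 4.3.3) on all 9 libraries in 1 model, over the 14949 genes with a mean of at least 0.5 FPKM. P-values were adjusted by Benjamini-Hochberg over all of them, with a threshold of 0.05. Intervals are 95% intervals from the fitted SE. DESeq2 1.42.0 and limma 3.58.1 on log2(FPKM + 0.1) were alternatives. Exact permutation tests were two-sided. The edgeR step was checked on simulated data. Within each group, no libraries agreed within sampling noise (lowest chi-square per degree of freedom 10.5). Libraries of different groups were not compared in this way. Deviations from group means had correlations of 0.107 to 0.182 between same-numbered libraries of the diet group and MPTP. Differently numbered libraries were not compared, so these values do not show pairing. Replicate number as a block changed no call of the diet group against MPTP.

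The members, lists and named genes (all members, the 3 most abundant of each list, the partners of each receptor, and the 2 genes nearest each member in pattern) were chosen with earlier results of these data known. Genes named for an unadjusted p, or as too low to test, were chosen after their values were seen. No sequence is printed, since none bears on these comparisons. Some genes of the lists are counted in them but not reported here by name.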

Additional observations from a re-analysis of the deposited data

How the results depend on the processing

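Across 20 alternatives per comparison, no member was called in any of them, and the lowest adjusted p of a member was 0.599. Of 420 recomputed member values, 394 kept their direction and 26 reversed, all of them uncalled. With the microglia markers as a covariate the reversed log2 fold changes were 0.071 (Apoe) and 0.051 (Axl) for MPTP against Ctrl, and 0.11 (Apoe), 0.025 (Cd9) and -0.099 (Tyrobp) for the diet group against Ctrl. With Ctrl 3 and MPTP 1 both left out they were 0.044 (Cd9) and 0.47 (Lgals3) for MPTP against Ctrl, and 0.045 (Cd9) and -0.0036 (Spp1) for the diet group against Ctrl. With limma on log2 FPKM, pseudocounts 0.1 and 1, Spp1 was at -0.019 and -0.014 for the diet group against Ctrl and Apoe at -0.010 with both for the diet group against MPTP. Leaving out 1 library gave, for MPTP against Ctrl, -0.069 to 0.030 (Apoe), -0.083 to 0.039 (Axl) and -0.91 to 0.21 (Lgals3), and -0.94 to -0.29 (Spp1) with no reversal. For the diet group against Ctrl it gave -0.057 to 0.042 (Apoe), -0.037 to 0.046 (Cd9) and -0.55 to 0.50 (Spp1), and -1.03 to -0.27 (Lgals3) with no reversal. For the diet group against MPTP it gave -0.019 to 0.036 (Apoe), -0.74 to 0.13 (Lgals3) and -0.20 to 0.030 (Trem2), and 0.045 to 1.11 (Spp1) with no reversal.

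Counts over all genes moved more. For MPTP against Ctrl the 2 calls (Dnajb1 and Hspa1b, no members) became 14 with DESeq2, 0 with limma at either pseudocount, without robust moderation and with the covariate, 1 with Ctrl 3 and MPTP 1 both left out, and 0 to 4 with 1 library left out. For the diet group against Ctrl the 0 calls became 16 with DESeq2, 1 with no filter, 4 with only those 2 groups, and 0 to 4 with 1 library left out. For the diet group against MPTP the 0 calls became 19 with DESeq2, 1 with both libraries left out, and 0 to 1 with 1 left out. With replicate number as a block the counts were 3, 5 and 0 for MPTP against Ctrl, the diet group against Ctrl and the diet group against MPTP. The causes were not tested. Same-numbered libraries had correlations of -0.151 to 0.0472 between Ctrl and MPTP and of -0.0073 to 0.078 between Ctrl and the diet group. Clec7a, Cst7 and Itgax had at most 30 reads a library.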
